A study of Mus musculus with 7 samples.

Results

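Mlkl and 9 further genes of the necroptosis pathway were followed across mouse embryonic fibroblasts with and without tenascin-C. The 10 genes were Mlkl, Ripk1, Ripk3, Casp8, Fadd, Tradd, Tnfrsf1a, Cflar, Cyld and Birc2, and a gene counted as measured when a probe set carried its symbol alone. On that rule 9 of the 10 genes were measured, by 12 probe sets among 34760, and all 9 passed the filter on low signal and were tested among 16801 genes of 19937. No probe set used here is listed for Ripk1, so it was not analysed here. Mlkl was selected on its low log2 signal in knockout cells against wild type, so its own values are given as a description without a test. The other genes were taken for their place in the pathway.

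Necroptosis is a lytic form of programmed cell death. Tumour necrosis factor binds its receptor TNFR1 (Tnfrsf1a), which recruits the adaptor TRADD and the kinase RIPK1 into a membrane complex. Ubiquitin chains laid down there by ligases such as cIAP1 (Birc2) favour survival signalling, and the deubiquitinase CYLD trims them. Released RIPK1 can join FADD and caspase-8, and caspase-8 paired with FLIP (Cflar) keeps RIPK1 and RIPK3 in check. When caspase-8 is blocked, RIPK3 phosphorylates the pseudokinase MLKL, which oligomerises and ruptures the plasma membrane. Mouse fibroblasts are a common cell for studying this pathway.

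RNA of spontaneously immortalised fibroblasts was hybridised to 7 Affymetrix whole-transcript arrays. There were 3 wild-type clones, 2 clones from tenascin-C knock-out animals, called knockout here, and 2 wild-type clones that carry a stable tenascin-C shRNA, called knockdown here. The cells were seeded at 50000 per well and cultured for 2 days in medium with serum, with no death stimulus or other treatment. Each array is 1 clone. The labels do not say whether the clones of 1 group share an animal, so the p-values rest on how far these clones vary, which may be technical in part. The 2 knockout clones differ in the sex-linked genes Xist and Uty, as given below. No group with a control hairpin is analysed here, and both deficient groups are compared with the same wild-type arrays.

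The targeted gene was lower in both deficient groups than in wild type. In knockout it lay 1.35 ± 0.32 (SE) above knockdown (limma adjusted p = 0.139). Tnc (tenascin-C) had a mean log2 signal (± SD) of 11.23 ± 0.30 on the 3 wild-type, 8.28 ± 0.32 on the 2 knockout and 6.93 ± 0.57 on the 2 knockdown arrays. Of 12 fibroblast markers, 6 were higher and 1 lower in knockout at an unadjusted limma p under 0.05, against 7.33% and 5.5% of all genes. In knockdown 2 were higher and 0 lower, against 7.12% and 6.99%. In both comparisons 0 were called, against 0.167% and 0.0179% of all genes. The intermediate filament gene Vim stood at 12.63 to 12.86 on all arrays, and the receptor gene Pdgfra at 9.5 and 10.04 in knockout against 10.68 to 11.59 elsewhere. The marker gene Lum stood at 5.06, 9.26 and 9.13 in wild type, 5.76 and 4.17 in knockout, and 6.95 and 5.85 in knockdown. Macrophages and blood cells are cells in which Ripk3 and Mlkl are abundant. The log2 of the summed linear signal of 10 markers of these cells was 7.94 to 8.10 in wild type. It was 8.08 to 8.18 in knockout and 7.96 to 8.0 in knockdown. Of these markers 0 were called in either comparison, against 0.167% and 0.0179% of all genes. Ptprc, the pan-leukocyte marker, stood at 4.0 to 4.23, near the 25th percentile of the arrays, and the lysozyme gene Lyz2 stood at 5.59 and 4.81 in knockout against 3.96 to 4.26 elsewhere. The part of these markers in the results was not tested. The corresponding ranges over all arrays were 7.64 to 7.85 for 7 endothelial and 7.98 to 8.18 for 7 epithelial markers, against 14.65 to 15.15 for fibroblast markers. Knockout array 2 stood apart in Xist (8.80, against 3.51 to 3.77 elsewhere). Knockout array 2 and knockdown array 2 were also low in the Y-linked gene Uty (3.14 and 4.98, against 6.75 to 8.02). In Xist and Uty the 2 knockout clones thus differed from each other as female and male cells do, and sex was not tested as a part of any result. Results below are therefore given without these arrays as well where they matter.

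Mlkl encodes the executioner of necroptosis. Its log2 signal was 7.52, 8.12 and 8.23 on the wild-type arrays, 3.54 and 4.42 on the knockout arrays, and 7.52 and 7.89 on the knockdown arrays. Both knockout arrays lay far below all 5 others, and the knockdown arrays lay within the wild-type range. The array's 25th percentile, used here as the cut for low signal, was 3.99 on knockout array 1 and 3.98 on knockout array 2. Mlkl lay below it on knockout array 1 and above it on knockout array 2, with 17.5% and 33% of probe sets lower than Mlkl. On the wild-type and knockdown arrays 75.8% to 83.5% of probe sets lay below it.

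The knockout mean of 3.98 ± 0.62 (SD, n = 2) was 15.8-fold below the wild-type mean of 7.96 ± 0.38 (SD, n = 3), a log2 difference of -3.98. No background level was measured, so how far low signal limits this fold is not known. The knockdown mean of 7.71 ± 0.26 (SD, n = 2) differed from wild type by -0.25, and the arrays of these groups overlapped. Knockout differed from knockdown by -3.73, with no overlap. Without knockout array 2 and knockdown array 2 the knockout difference was -4.41 and the knockdown difference -0.44. Mlkl was thus low in both knockout clones and within the wild-type range in both knockdown clones. Whether Mlkl depends on the amount of tenascin-C was not tested. An array of a cell population cannot tell fewer expressing cells from less transcript per cell.

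The Mlkl promoter is printed because the transcript was low in both knockout clones. Those of Cflar and Cyld are printed because these members stood lower together in knockdown, as described further on. The sequences are from RefSeq (GRCm38.p6) and run from 250 bases before to 50 bases after the annotated start. Capitals mark a match to one of 3 motifs searched on both strands: GAAANNGAA, part of the core of an interferon-stimulated response element, TTCNNNGAA, the core of a gamma-activated site, and GGANNTTCC, part of the core of an NF-kB site.
Mlkl, chr8:111338156-111338455, minus strand: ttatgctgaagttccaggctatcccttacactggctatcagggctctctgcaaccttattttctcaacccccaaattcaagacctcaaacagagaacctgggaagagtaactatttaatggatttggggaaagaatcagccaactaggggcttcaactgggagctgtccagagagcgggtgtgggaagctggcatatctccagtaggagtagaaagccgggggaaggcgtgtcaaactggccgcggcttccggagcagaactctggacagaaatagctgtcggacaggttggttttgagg
Cflar, chr1:58711241-58711540, plus strand: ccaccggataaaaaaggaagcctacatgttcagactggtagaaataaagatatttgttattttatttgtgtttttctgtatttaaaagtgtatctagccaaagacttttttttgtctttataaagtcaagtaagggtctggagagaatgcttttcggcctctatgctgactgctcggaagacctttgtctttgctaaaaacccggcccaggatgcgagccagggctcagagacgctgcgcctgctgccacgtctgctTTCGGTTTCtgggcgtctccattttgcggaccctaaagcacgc
Cyld, chr8:88696778-88697077, plus strand: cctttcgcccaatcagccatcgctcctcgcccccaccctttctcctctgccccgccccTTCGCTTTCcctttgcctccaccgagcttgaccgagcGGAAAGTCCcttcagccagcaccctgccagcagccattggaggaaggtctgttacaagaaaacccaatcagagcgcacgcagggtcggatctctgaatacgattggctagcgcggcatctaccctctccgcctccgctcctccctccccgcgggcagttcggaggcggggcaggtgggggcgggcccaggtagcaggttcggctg

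The Mlkl window held none of the 3 motifs. The Cflar window held 1 GAAANNGAA match on the reverse strand, after the annotated start, and the Cyld window held 1 GAAANNGAA and 1 GGANNTTCC match, both on the reverse strand before the start. None of these matches overlapped another. Among all 32851 promoter windows of 300 bases, 8.56% held GAAANNGAA, 8.3% held TTCNNNGAA and 4.26% held GGANNTTCC. A match here is a run of letters, not a measured binding site. For the other genes, 1 of the 2 Ripk1 windows held a TTCNNNGAA match at 2 places and a GAAANNGAA match that overlapped one of them, and the other window held none. The Tnfrsf1a window held a TTCNNNGAA match and the Ripk3 window a GAAANNGAA match, the windows of Casp8, Fadd and Birc2 held none of the 3, and Tradd was not matched to a window.

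**Figure D1:**
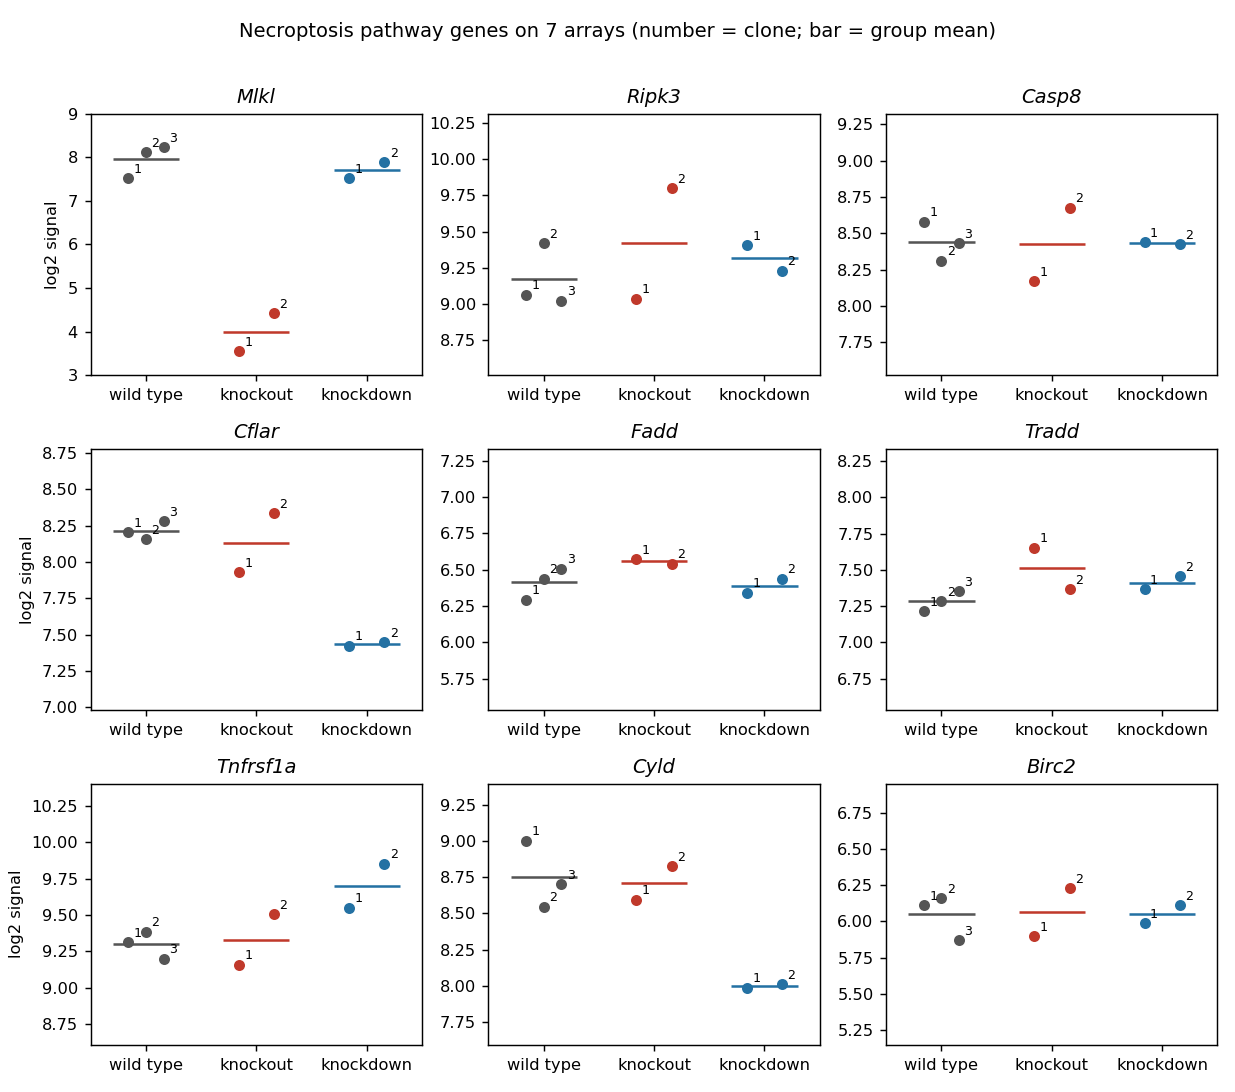
Log2 signal (y axis) of the 9 measured pathway genes on each array, by group; points are clones, numbered, and bars are group means. Panels other than Mlkl share a height of 1.8 log2 units. Mlkl stands at 3.54 and 4.42 in knockout and above 7.5 elsewhere, and Cflar and Cyld stand lowest on both knockdown arrays.

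Outside Mlkl, no measured pathway gene passed the test in knockout. By limma, 0 of the 8 other genes were called at an adjusted p under 0.05, where 0.167% of all tested genes were called, 0.119% higher and 0.0476% lower. An unadjusted p under 0.05 was found for 0 of 8, against 12.8% of all genes, 7.33% higher and 5.5% lower. Their log2 differences ran from -0.08 to 0.25, with a median of 0.024, against a median of -0.028 over all genes. The knockout arrays lay outside the wild-type range for 2 of the 8 genes, both higher, against 28.5% of all genes, 13.2% higher and 15.3% lower.

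In knockdown, Tnfrsf1a stood higher and Cflar and Cyld lower than in wild type, and none of them passed over all genes. Again 0 of 8 genes were called by limma, where 0.0179% of all genes were, all lower. An unadjusted p under 0.05 was found for 3 of the 8, 1 higher and 2 lower, against 14.1% of all genes, 7.12% higher and 6.99% lower. The knockdown arrays lay outside the wild-type range for 4 of the 8, 2 higher and 2 lower, against 30.5% of all genes, 17.5% higher and 12.9% lower. Between knockout and knockdown 0 of 8 were called, against 0.375% of all genes, 0.274% higher and 0.101% lower in knockout. There 2 of the 8 had an unadjusted p under 0.05, both higher in knockout, against 17.9% of all genes, 9.05% higher and 8.87% lower. For 4 of the 8 the knockout and knockdown arrays did not overlap, 3 higher and 1 lower, against 45% of all genes, 17.8% higher and 27.2% lower. Without knockout array 2 and knockdown array 2, the calls were 0 of 8 in each comparison, with 2 of 8 at an unadjusted p under 0.05 in each.

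**Figure D2:**
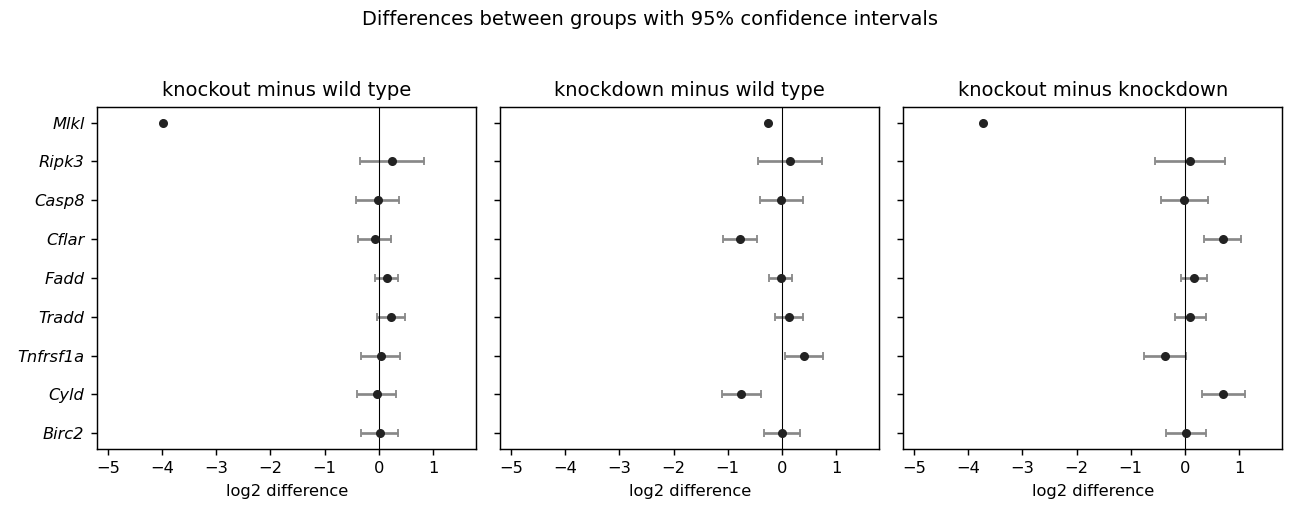
Log2 differences (x axis) of the 9 genes between groups, from the limma fit over all 7 arrays; whiskers are 95% confidence intervals, unadjusted for the number of genes, and Mlkl, chosen for its knockout signal, has none. Mlkl is the outlying point at -3.98 and -3.73 in the knockout panels, and the Cflar and Cyld intervals lie below 0 in knockdown minus wild type.

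Tnfrsf1a, the gene of TNFR1, had a log2 signal of 9.31, 9.39 and 9.20 in wild type, 9.16 and 9.51 in knockout, and 9.55 and 9.85 in knockdown. Both knockdown arrays lay above every other array, while the knockout arrays spanned the wild-type values. The knockdown difference was 0.40 ± 0.14 (SE; 95% interval 0.051 to 0.76), a ratio of 1.32 that did not pass (limma adjusted p = 0.306). It was 0.25 without knockdown array 2 and 0.56 without knockdown array 1. The knockout difference was 0.033 ± 0.14 (SE, adjusted p = 0.942). Knockout lay 0.37 ± 0.16 (SE) below knockdown (adjusted p = 0.296).

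The adaptors lay slightly higher in knockout without passing. Tradd, which links TNFR1 to RIPK1, had a log2 signal of 7.22, 7.28 and 7.35 in wild type, 7.65 and 7.37 in knockout, and 7.36 and 7.46 in knockdown. Every deficient array lay above every wild-type array, though the closest values nearly met. The differences were 0.23 ± 0.11 (SE, adjusted p = 0.449) in knockout and 0.13 ± 0.11 (SE, adjusted p = 0.643) in knockdown. The knockout value was 0.084 without knockout array 1 and 0.37 without knockout array 2. Fadd, the death-domain adaptor that brings in caspase-8, stood at 6.29, 6.44 and 6.51 in wild type, 6.57 and 6.54 in knockout, and 6.34 and 6.44 in knockdown. Its knockout arrays lay just above the wild-type range, with a difference of 0.14 ± 0.088 (SE, adjusted p = 0.537), and its knockdown difference was -0.023 ± 0.088 (SE, adjusted p = 0.937).

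Birc2, the gene of cIAP1, stood at 6.11, 6.16 and 5.87 in wild type, 5.90 and 6.23 in knockout, and 5.99 and 6.11 in knockdown. All 3 groups overlapped, with differences of 0.015 ± 0.14 (SE, adjusted p = 0.976) and 0.0018 ± 0.14 (SE, adjusted p = 1). A dimmer Birc2 probe set stood at 5.13 to 5.71 and gave -0.20 in knockout and 0.047 in knockdown.

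Cyld, the deubiquitinase gene, stood at 9.0, 8.55 and 8.70 in wild type, 8.60 and 8.82 in knockout, and 7.99 and 8.01 in knockdown. The knockdown arrays lay close together and below all 5 others. The knockdown mean was 8.0 ± 0.017 (SD, n = 2) against 8.75 ± 0.23 in wild type (SD, n = 3), a difference of -0.75 ± 0.15 (SE; 95% interval -1.11 to -0.39). That is a 1.68-fold lower signal, with an unadjusted limma p of 0.0023, and it did not pass over all genes (limma adjusted p = 0.162). The knockout difference was -0.040 ± 0.15 (SE, adjusted p = 0.93), and knockout lay 0.71 ± 0.16 (SE) above knockdown (adjusted p = 0.133). In order of level, wild type and knockout did not differ beyond their spread, and knockdown lay below both.

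Casp8, the protease that restrains necroptosis, stood at 8.58, 8.31 and 8.43 in wild type, 8.17 and 8.67 in knockout, and 8.44 and 8.42 in knockdown. All groups overlapped, with differences of -0.017 ± 0.16 in knockout and -0.0090 ± 0.16 in knockdown (SE, adjusted p = 0.977 and 0.992). The 95% intervals, unadjusted for the number of genes, ran from -0.41 to 0.38 and from -0.41 to 0.39. Differences within these intervals could not be told from 0 here. Larger differences, such as that of Cyld in knockdown at -0.75, did not pass over all genes either.

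Cflar encodes FLIP, the catalytically inactive partner of caspase-8. Its brightest probe set stood at 8.20, 8.16 and 8.28 in wild type, 7.93 and 8.34 in knockout, and 7.42 and 7.45 in knockdown. Both knockdown arrays lay below the lowest other array. The knockdown mean was 7.44 ± 0.018 (SD, n = 2) against 8.21 ± 0.064 in wild type (SD, n = 3), a difference of -0.78 ± 0.13 (SE; 95% interval -1.09 to -0.46), or 1.71-fold lower. With an unadjusted limma p of 8.8e-04 it had the smallest p of the 8 genes, but it did not pass over all genes (limma adjusted p = 0.128; 0.101 to 0.336 over 17 alternatives).

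Of the 3 Cflar probe sets, all showed lower knockdown arrays. The second stood at 7.39, 7.22 and 7.21 in wild type, 7.11 and 7.79 in knockout, and 6.79 and 6.67 in knockdown. The third stood at 7.65, 7.18 and 7.18, then 7.01 and 7.45, then 6.35 and 6.70. In each of the 3 the knockdown arrays lay below every wild-type and knockout array, and the knockdown differences were -0.54, -0.78 and -0.81. Averaged over the 3, Cflar stood -0.71 ± 0.16 (SE) from wild type (adjusted p = 0.184). The knockout difference of the brightest was -0.080 ± 0.13 (SE, adjusted p = 0.818), and knockout lay 0.70 ± 0.14 (SE) above knockdown (adjusted p = 0.105). That knockout difference was -0.28 without knockout array 2 and 0.12 without knockout array 1, so the knockout clones lay on opposite sides of the wild-type mean.

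Cflar and Casp8 are direct neighbours on chromosome 1 in RefSeq (GRCm38.p6), with 0 protein-coding genes between them. The knockdown arrays lay below wild type in Cflar and within the wild-type range in the gene beside it. Mlkl, Tradd and Cyld all lie on chromosome 8, with 107 protein-coding genes between Mlkl and Tradd and 212 between Mlkl and Cyld. Without knockout array 2 and knockdown array 2, Cflar stood at -0.79 (adjusted p = 0.244) and Cyld at -0.76 (adjusted p = 0.322) in knockdown.

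**Figure D3:**
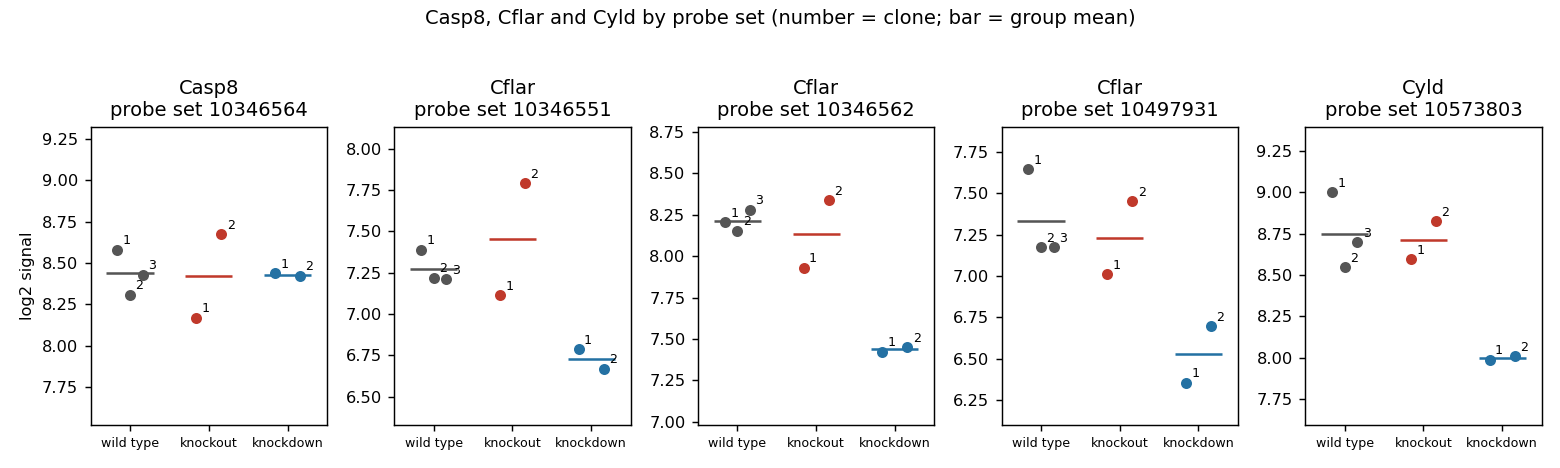
Log2 signal (y axis) of Casp8, the 3 Cflar probe sets and Cyld on each array, by group; points are numbered clones and bars are group means, and each panel spans 1.8 log2 units. The 2 knockdown points are lowest in all 3 Cflar panels and in the Cyld panel, and lie within the wild-type range in the Casp8 panel.

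Ripk3, the kinase that activates MLKL, stood at 9.06, 9.42 and 9.02 in wild type, 9.04 and 9.80 in knockout, and 9.41 and 9.23 in knockdown. Knockout array 2 had the highest value of all and knockout array 1 the second lowest, so the groups overlapped. The differences were 0.25 ± 0.24 (SE, adjusted p = 0.683) in knockout and 0.15 ± 0.24 (SE, adjusted p = 0.829) in knockdown. Without knockout array 2 the knockout difference was -0.13 and without knockout array 1 it was 0.63. Both knockout arrays, low in Mlkl, thus held Ripk3 at or above the lowest wild-type value.

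The 2 knockout clones differed from each other in many of these genes. Knockout array 2 was higher than knockout array 1 for 7 of the 9 genes, whereas 41% of all tested genes were higher on array 2. The gap was 0.87 for Mlkl, 0.76 for Ripk3, 0.50 for Casp8, 0.41 for Cflar and 0.35 for Tnfrsf1a, against a median gap of 0.16 over all genes. Gaps larger than that of Ripk3 were found in 4.06% of genes. Knockdown array 2 was likewise higher than knockdown array 1 for 7 of the 9 genes, against 45.9% of all genes. Its gap was 0.37 for Mlkl, 0.30 for Tnfrsf1a and 0.18 in size for Ripk3, above the median of 0.14 over all genes, and 0.016 for Casp8, 0.026 for Cflar and 0.023 for Cyld in size, below it. These are single pairs of arrays and carry no test.

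Over all 7 arrays, the range was 4.69 log2 units for Mlkl, and 0.161% of tested genes had a larger one. It was 1.01 for Cyld, 0.91 for Cflar, 0.77 for Ripk3 and 0.70 for Tnfrsf1a, and from 0.28 to 0.50 for Fadd, Birc2, Tradd and Casp8. The median range of all tested genes was 0.49. After Mlkl, the widest range among the 9 genes was thus that of Cyld.

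No tested gene beside Mlkl on chromosome 8 had a knockout difference near that of Mlkl. Of the 10 nearest protein-coding genes on each side in GRCm38.p6 order, 16 of 20 were tested, 0 of them were called by limma in knockout (0.167% of all genes) and 1 had an unadjusted p under 0.05 (12.8% of all genes). That gene, the sialyltransferase gene St3gal2, stood higher by 0.43 ± 0.11 (SE, adjusted p = 0.206). Their knockout differences ran from -0.35 to 0.60, with a median of -0.052 and 6 of 16 above 0, against 42.6% of all genes. The nearest on one side, Rfwd3, a ubiquitin ligase gene of DNA repair, stood at -0.35 ± 0.15 (SE, adjusted p = 0.419). The nearest on the other, the fatty acid hydroxylase gene Fa2h, stood at -0.24 ± 0.13 (SE, adjusted p = 0.508). In knockdown the 16 ran from -0.52 to 0.33, with 13 of 16 below 0, where 56.8% of all genes lay above 0, and 0 were called (0.0179% of all genes). An unadjusted p under 0.05 was found for 2 (14.1% of all genes), Rfwd3 at -0.52 ± 0.15 (SE, adjusted p = 0.238) and the chromatin gene Cfdp1 at -0.49 ± 0.12 (SE, adjusted p = 0.19).

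**Figure D4:**
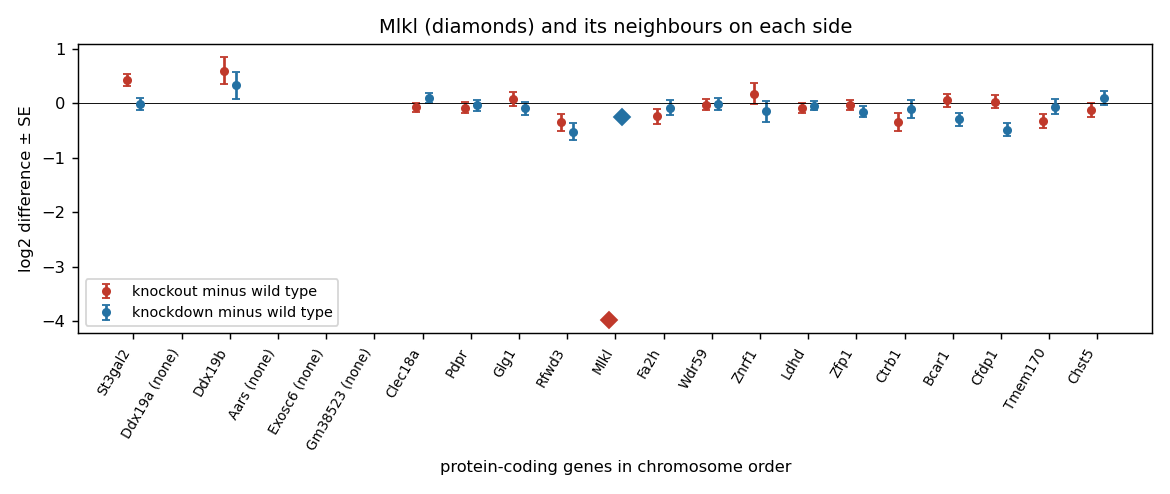
Log2 difference from wild type (y axis; ± SE, none for Mlkl) of Mlkl and the 10 protein-coding genes on each side, in chromosome order (x axis), for knockout (red) and knockdown (blue); "none" marks genes with no single-symbol probe set. The knockout diamond of Mlkl at -3.98 stands alone, and its tested neighbours lie between -0.35 and 0.60 in knockout.

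The genes whose profile was most like that of Mlkl were sought among 455 tested genes with a range of at least 2 log2 units, by Pearson correlation over the 7 arrays, which share the split between knockout and the rest. The highest were Rpl39l, related to a ribosomal protein (r = 0.978), Cemip, a gene of hyaluronan breakdown (r = 0.967), and Slc38a4, an amino acid transporter gene (r = 0.965). Igsf10, of the immunoglobulin superfamily (r = 0.954), and the homeobox gene Meis2 (r = 0.947) followed. Rpl39l stood at 3.90 and 4.09 in knockout and 7.80 to 8.37 elsewhere. Slc38a4 stood at 5.48 and 6.01 in knockout and 8.58 to 10.42 elsewhere. Cemip stood at 5.32 and 6.69 against 7.82 to 8.57. These 3 were low on both knockout arrays. In knockdown, Rpl39l and Cemip lay just below the wild-type range and Slc38a4 lay on both sides of it, while Mlkl lay within its own.

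The wider pathway was read from 9 lists of 118 genes, of which 108 had a single-symbol probe set and 106 were tested. In knockout 1 gene rose and 0 fell by limma, with 16 genes up and 4 down at an unadjusted p under 0.05, and the median difference of the 106 was -0.014 against -0.028 over all genes. In knockdown 0 rose and 0 fell, with 10 genes up and 8 down at an unadjusted p under 0.05, and the median was -0.016 against 0.028 over all genes. The background was 0.167% and 0.0179% called, and 12.8% and 14.1% at an unadjusted p under 0.05.

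The gene that rose was a receptor. Tnfrsf1b encodes TNFR2, the tumour necrosis factor receptor without a death domain. Its log2 signal was 5.56, 5.4 and 5.73 in wild type, 6.78 and 6.82 in knockout, and 5.84 and 5.59 in knockdown. Both knockout arrays lay above all others, and the difference was 1.23 ± 0.13 (SE, n = 2 against 3), 2.35-fold, with a limma adjusted p of 0.0433. In knockdown it stood at 0.15 ± 0.13 (SE, adjusted p = 0.65), and the knockout minus knockdown difference of 1.09 ± 0.14 (SE) had an adjusted p of 0.0533. The call is fragile: the adjusted p was 0.0213 to 0.18 over 17 alternatives and under 0.05 in 5, and leaving out any 1 of the 7 arrays ended it (0.0922 to 0.154). Of the other 10 death ligand and receptor genes tested, 0 were called in knockout or knockdown, against 0.167% and 0.0179% of all genes. Tnfrsf21, the gene of death receptor 6, stood at -0.56 ± 0.17 (SE, adjusted p = 0.241) in knockdown and Tnfrsf12a, a TWEAK receptor gene, at -0.31 ± 0.19 (SE, adjusted p = 0.528).

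Among 21 ubiquitin and kinase factors of the receptor complex 0 were called in knockout or knockdown, against 0.167% and 0.0179% of all genes. At an unadjusted limma p under 0.05, 4 were higher and 0 lower in knockout, against 7.33% and 5.5% of all genes. In knockdown 4 were higher and 3 lower, against 7.12% and 6.99%. Sharpin, a subunit of the linear ubiquitin ligase LUBAC, stood at 8.13, 8.37 and 8.16 in wild type, 8.83 and 8.72 in knockout, and 8.52 and 8.66 in knockdown. All 4 deficient arrays were above wild type, by 0.56 ± 0.10 (SE, adjusted p = 0.127) and 0.37 ± 0.10 (SE, adjusted p = 0.22). Tank, a scaffold of TBK1, stood at 0.62 ± 0.16 (SE, adjusted p = 0.217) in knockout. Map3k7, the gene of the kinase TAK1 that signals survival from this complex, stood at 9.64, 9.42 and 9.38 in wild type, 9.51 and 9.13 in knockout, and 8.94 and 8.81 in knockdown. Its knockdown difference was -0.60 ± 0.14 (SE, adjusted p = 0.188).

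Among 16 partners and regulators of RIPK3 and MLKL 0 were called, against 0.167% of all genes in knockout and 0.0179% in knockdown. Peli1, a ubiquitin ligase gene that acts on RIP kinases, stood at 8.13, 7.89 and 7.89 in wild type, 7.89 and 8.08 in knockout, and 6.87 and 7.09 in knockdown. Both knockdown arrays lay below all others, with a difference of -0.99 ± 0.12 (SE), 1.99-fold lower, that did not pass (adjusted p = 0.1; 0.0888 to 0.309 over 17 alternatives). Knockout lay 1.01 ± 0.13 (SE) above knockdown (adjusted p = 0.0543). Glul, a glutamine synthetase gene, stood at -0.41 ± 0.17 (SE, adjusted p = 0.397) in knockout and -0.30 ± 0.17 (SE, adjusted p = 0.492) in knockdown, and Camk2d, a calcium-dependent kinase gene, at 0.35 ± 0.12 (SE, adjusted p = 0.335) in knockout. Of 3 RIP kinase relatives 0 were called, against the same shares of all genes. Dstyk stood at 0.29 ± 0.13 (SE, adjusted p = 0.445) and Ankk1 at -0.28 ± 0.18 (SE, adjusted p = 0.552) in knockout. In knockdown Dstyk stood at 0.15 ± 0.13 (SE, adjusted p = 0.667) and Ripk4 at 0.089 ± 0.094 (SE, adjusted p = 0.717).

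The other triggers and brakes were also uncalled, where 0.167% of all genes were called in knockout and 0.0179% in knockdown. Of 6 nucleic acid sensors and proteins with the RIP homotypic motif, 4 were lower in knockout and 5 in knockdown, where 42.6% and 56.8% of all genes lay above 0, with medians of -0.16 and -0.11 and 0 called. Tlr3, a receptor for double-stranded RNA, stood at -0.23 ± 0.12 (SE, adjusted p = 0.485) in knockout, and Tlr4, the endotoxin receptor gene, at -0.35 ± 0.22 (SE, adjusted p = 0.544) in knockout and -0.43 ± 0.22 (SE, adjusted p = 0.45) in knockdown. Adar, an RNA editing enzyme gene, stood at -0.24 ± 0.12 (SE, adjusted p = 0.46) in knockdown. Of 10 genes of membrane repair and MLKL removal 0 were called. At an unadjusted limma p under 0.05, 1 was higher and 0 lower in knockout, against 7.33% and 5.5% of all genes. In knockdown 2 were higher and 2 lower, against 7.12% and 6.99%. Sdcbp (syntenin) stood at -0.33 ± 0.14 and -0.45 ± 0.14, and Flot1 (flotillin) at 0.32 ± 0.12 and 0.35 ± 0.12, in knockout and knockdown (SE, adjusted p from 0.249 to 0.399).

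The neighbouring death pathways gave 0 calls as well, against 0.167% of all genes in knockout and 0.0179% in knockdown. Of 14 genes of apoptosis execution 4 had an unadjusted limma p under 0.05 in knockout, 3 higher and 1 lower, against 7.33% and 5.5% of all genes. Bid, the link from caspase-8 to mitochondria, stood at 0.64 ± 0.21 (SE, adjusted p = 0.304) and Parp1 at -0.42 ± 0.12 (SE, adjusted p = 0.251). In knockdown Cycs, the cytochrome c gene, stood at 9.72 and 9.74 against 10.20 to 10.26 in wild type, a difference of -0.49 ± 0.071 (SE, adjusted p = 0.115), and Casp6 stood at 0.43 ± 0.13 (SE, adjusted p = 0.249). Of 10 pyroptosis genes tested, 2 were higher and 1 lower in knockout at an unadjusted limma p under 0.05, against 7.33% and 5.5%. In knockdown 1 was higher and 0 lower, against 7.12% and 6.99% of all genes. Ninj1, whose product ruptures the membrane at the end of several lytic deaths, stood at 7.92 and 7.70 in knockout. It stood at 7.43 and 7.42 in knockdown against 7.0 to 7.17 in wild type. All 4 deficient arrays were above wild type, by 0.75 ± 0.098 (SE, adjusted p = 0.0668) and 0.37 ± 0.098 (SE, adjusted p = 0.205). The pore-forming gasdermin gene Gsdme stood at 0.52 ± 0.13 (SE, adjusted p = 0.204) and 0.29 ± 0.13 (SE, adjusted p = 0.393).

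Mlkl is an interferon-inducible gene, and 15 interferon signalling genes were tested. Of these 0 were called, against 0.167% of all genes in knockout and 0.0179% in knockdown. At an unadjusted limma p under 0.05, 3 were higher and 2 lower in knockout, against 7.33% and 5.5% of all genes. In knockdown 2 were higher and 0 lower, against 7.12% and 6.99%. In knockout Stat2 and Irf9, partners in the complex that drives type I interferon responses, stood at -0.56 ± 0.11 (SE, adjusted p = 0.136) and -0.51 ± 0.15 (SE, adjusted p = 0.242). Stat2 stood at 7.03 and 7.30 in knockout against 7.59 to 7.80 in wild type. Ifngr2 and Jak2 went the other way in knockout, at 0.91 ± 0.30 (SE, adjusted p = 0.309) and 0.80 ± 0.26 (SE, adjusted p = 0.308). In knockdown Irf1, an interferon-regulated transcription factor gene, and Socs1, a feedback inhibitor gene, stood at 0.50 ± 0.12 (SE, adjusted p = 0.188) and 0.35 ± 0.13 (SE, adjusted p = 0.311). The list medians were 0.012 in knockout and -0.0067 in knockdown. Whether interferon signalling plays a part in the Mlkl values was not tested.

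**Figure D5:**
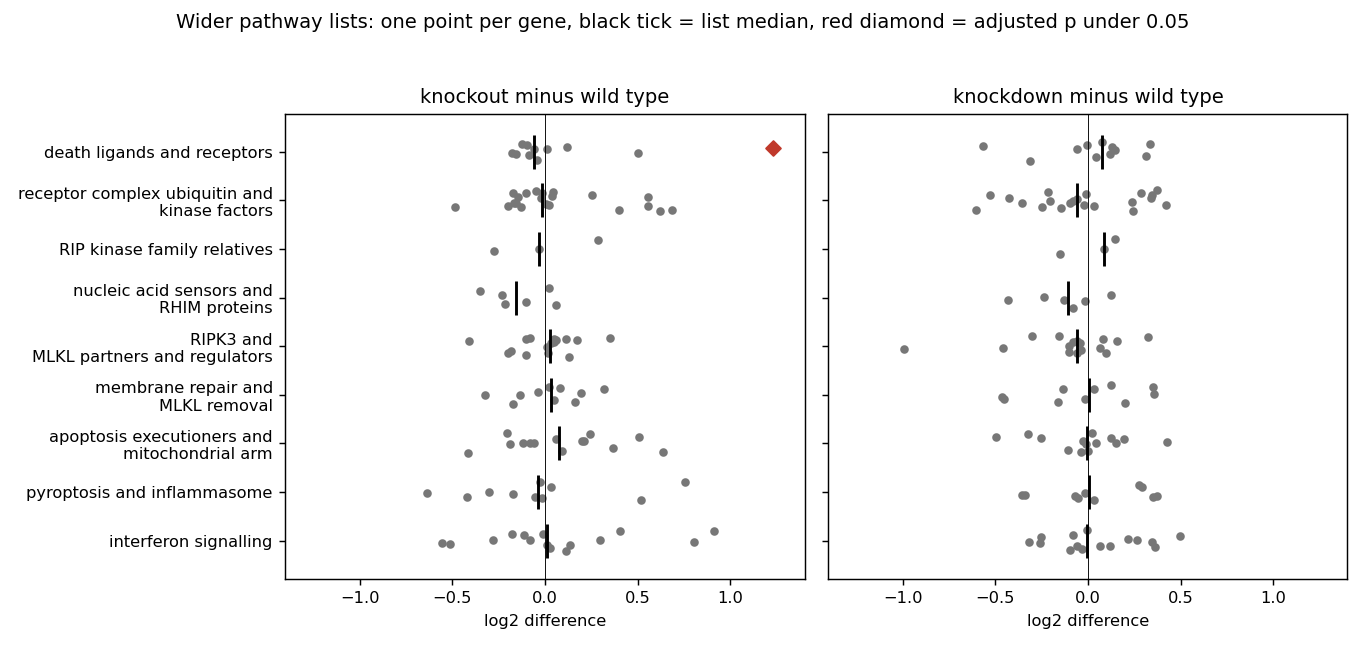
Log2 difference from wild type (x axis) of every tested gene of the 9 wider pathway lists (rows), in knockout (left) and knockdown (right); points are genes, black ticks list medians, and the red diamond a gene with adjusted p under 0.05. List medians lie close to 0, Tnfrsf1b at 1.23 is the diamond, and the lowest knockdown point is Peli1 at -0.99.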

How the data were processed

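The authors deposited log2 signal values, 1 column per array and 1 row per probe set (34760 rows). Per the submitters' processing notes they used R 2.8.0 and the affy package; how they corrected background, normalized and summarised probes is not given in the sources used here. Values of 1.81 to 13.7 show the log2 scale. Of all probe sets 46.2% held the same value on 2 or more arrays. Array medians were 5.38 to 5.49 and arrays correlated at 0.979 to 0.99. For arrays, their number limits the precision.

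Probe sets with 1 symbol were kept (21640), the brightest per gene was used, and genes above the 25th percentile on at least 2 arrays were tested. Group means were fitted to the 7 arrays jointly (limma 3.58.1, R 4.3.3; lmFit, eBayes, two-sided; residual df 4, prior df 2.06), with Benjamini-Hochberg adjustment within each comparison at 0.05. "Rose" and "fell" mean an adjusted p under 0.05. The fit was tested on simulated data.

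The pathway genes, lists, motifs and tests were chosen with earlier results of these data known, and the interferon and NF-kB motifs were shortened by a letter after a first search, which gave fewer matches. Named are all members, called list genes or otherwise the 2 of smallest p per list and comparison, the nearest Mlkl neighbours, and the 5 genes most like Mlkl. Alternatives were no or a stricter filter, quantile normalization, median centring, array weights, fits of only 2 groups, a replicate block, a trended robust prior, averaged probe sets, and arrays left out.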

Additional observations from a re-analysis of the deposited data

How the results depend on the processing

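Over 17 alternatives, 0 of the 8 tested members were called by limma in any of the 3 comparisons, 0 of the Mlkl neighbours in knockout and 0 list genes in knockdown, with 0 to 2 members in knockout and 2 or 3 in knockdown at an unadjusted p under 0.05. The Mlkl difference was -4.41 to -3.54 in knockout with single arrays left out, and -4.41 without both arrays numbered 2. The knockdown difference of Mlkl was -0.47 to -0.064. The Cflar and Cyld knockdown differences stayed between -0.81 and -0.71 and between -0.85 and -0.62. The count of list genes that rose in knockout was 1 with the main settings, quantile normalization, the trended prior and averaged probe sets, and 2 with the stricter filter or median centring, where Ninj1 joined Tnfrsf1b. It was 0 with no filter, array weights, only 2 groups, the replicate block, or without both arrays numbered 2, and 0 to 0 with single arrays left out, and these settings gave 11 to 21 genes at an unadjusted p under 0.05. Replicate numbers name clones, and whether same-numbered arrays are paired is not known here. Same-numbered arrays had correlations of deviations from -0.074 to 0.20, and differently numbered ones from -0.21 to 0.21. Deviations in a group of 2 arrays mirror each other, so these values cannot show whether arrays are paired. With the replicate block the Mlkl knockout difference was -3.84 and the list count 0. The count of all genes called in knockout was 1 to 79, against 28. No background signal was measured, so its bearing on the size of the Mlkl difference is not known.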

Other observations

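The spread between clones differed from gene to gene. Wild-type arrays differed by 0.71 log2 units between the highest and the lowest Mlkl value, and 5.23% of tested genes had a larger gap between wild-type arrays. Cyld differed by 0.45 between wild-type arrays, with 14.7% of genes wider, and Cflar by 0.13, with 70.5% wider.

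Between knockout and knockdown, 0 of the 106 list genes were called by limma, against 0.375% of all genes. At an unadjusted limma p under 0.05, 12 were up and 6 down in knockout, against 9.05% and 8.87% of all genes. Tnfrsf1b, Peli1 and Cycs, all higher in knockout, had adjusted p-values of 0.0533, 0.0543 and 0.0543.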
